A study of Mus musculus with 16 samples.

Results

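The genes of mitochondrial and peroxisomal fatty acid oxidation were followed in white and brown adipose tissue of mice with and without the glucocorticoid receptor in fat. The set holds 33 genes, listed by function with earlier results of these data known, out of 19096 named genes on the array. Their 42 probes were found by matching the RefSeq accession of each probe to a gene symbol. All 33 were measured, of the 15460 genes that could be tested, and every one of their probes was well above background on some array of each group. By where their products work, 19 members were taken as mitochondrial, 7 as peroxisomal and 7 as dual, cytosolic, membrane-bound or nuclear.

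Fatty acids are activated to acyl-CoA esters, carried into mitochondria as carnitine esters and then shortened in cycles of dehydrogenation, hydration, a further dehydrogenation and thiolysis. Electrons from the initial dehydrogenation reach the respiratory chain through the electron transfer flavoprotein. Peroxisomes run a parallel pathway for very long, branched or otherwise unusual chains. Brown fat burns fatty acids to make heat, white fat mainly stores and releases them, and PPARα, encoded by Ppara, is a nuclear receptor known to drive many of these genes in liver.

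Total RNA was hybridised to 16 1-colour (Cy3) Agilent arrays, with 4 arrays in each of 4 groups of male mice. The groups were brown fat of adipose-specific glucocorticoid receptor knockout mice, brown fat of control mice, white fat of the knockout mice and white fat of the control mice. The series' design text calls the controls wild-type and the 4 of each group biological replicates; the sources used here give neither the Cre driver, the deleted exon, the depot of white fat nor the age. Some arrays repeat each other: 9 of 24 within-group pairs were closer than the measurement error that the scanner software assigns, and these were averaged into 1 sample. This left 2 brown knockout samples (array 1; arrays 2, 3 and 4), 3 brown control samples (array 1; arrays 2 and 3; array 4), 2 white knockout samples (array 1; arrays 2, 3 and 4) and 2 white control samples (arrays 1 and 4; arrays 2 and 3), and all sample values below follow this order. This reading of the rule was settled after its outcome was seen: a first, literal reading joined all 4 white control arrays into 1 sample and left 8, and under it the Cpt1a call described below was lost (adjusted p = 0.218). P-values measure the spread between these few samples.

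On each array 67.3% to 77.0% of spots exceeded background well, and no spot was saturated. Nr3c1, which encodes the receptor, had levels of 1.50 and 1.69 in brown knockout against 2.46, 2.62 and 2.29 in brown control samples, and 1.50 and 1.27 in white knockout against 2.42 and 2.14 in white control samples. Its level was thus lower in every knockout sample than in every control sample of the same tissue, though it was not called (adjusted p = 0.614 in brown and 0.411 in white fat). Where its probe lies relative to the deleted part is not known here. A level is the log2 of processed intensity minus the 75th percentile of its array, so 0 is that percentile. Levels of different probes cannot be ranked against each other, and differences between groups are log2 differences with the standard error of a limma fit. Samples that stand apart are the white knockout sample on arrays 2, 3 and 4, whose 12 lymphocyte markers had a median 3.60 above the white control mean and whose 10 adipocyte markers had a median of -1.69 against it, and both brown knockout samples, with lymphocyte medians of 3.47 and 5.33 above the brown control mean. Control samples themselves spread on this measure between -1.32 and 1.57 in brown and between -1.29 and 1.29 in white fat. The brown control sample on arrays 2 and 3 went against its label: Ucp1, the uncoupling protein that defines brown fat, had levels of 5.63 and 5.80 in brown knockout, 6.53, -0.83 and 8.08 in brown control, -2.52 and -0.99 in white knockout and -1.68 and -1.88 in white control samples, and Cidea and Elovl3 were as low in that sample as in white fat. Results in brown control fat are therefore also given without it. In bulk tissue, fewer cells of a type and less RNA per cell cannot be told apart.

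Stretches around the start sites of 3 members are shown, chosen after motif matches were seen. Cpt1a is the member called lower in brown control fat, and Acadvl is the acyl-CoA dehydrogenase with the smallest p between tissues. Hadhb shares its start region with Hadha. Whether these sequences bear on the levels was not tested. Windows run from 250 bases before to 50 bases after the RefSeq start (GRCm38.p6), and 28 of the 33 members had such windows, 29 in all. Cpt1b, Crat, Hsd17b4, Acaa2 and Decr1 had none. Capitals mark the letters AGGTCA on either strand in the Cpt1a and Acadvl windows (read as TGACCT on the opposite strand in Cpt1a), and in the Hadhb window the 228 bases shared with the Hadha window on the other strand.
Cpt1a, chr19:3323051-3323350, plus strand: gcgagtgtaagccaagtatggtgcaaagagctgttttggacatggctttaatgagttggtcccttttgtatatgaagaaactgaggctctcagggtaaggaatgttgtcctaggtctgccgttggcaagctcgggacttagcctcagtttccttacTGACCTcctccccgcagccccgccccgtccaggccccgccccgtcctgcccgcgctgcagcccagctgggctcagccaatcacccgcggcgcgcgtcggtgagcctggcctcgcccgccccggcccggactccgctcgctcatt
Acadvl, chr11:70015379-70015678, minus strand: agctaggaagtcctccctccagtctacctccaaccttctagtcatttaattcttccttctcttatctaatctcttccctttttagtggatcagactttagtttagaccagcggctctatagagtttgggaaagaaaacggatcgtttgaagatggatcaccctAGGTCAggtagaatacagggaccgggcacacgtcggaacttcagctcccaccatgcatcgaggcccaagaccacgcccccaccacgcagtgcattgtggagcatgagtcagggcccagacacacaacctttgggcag
Hadhb, chr5:30155003-30155302, plus strand: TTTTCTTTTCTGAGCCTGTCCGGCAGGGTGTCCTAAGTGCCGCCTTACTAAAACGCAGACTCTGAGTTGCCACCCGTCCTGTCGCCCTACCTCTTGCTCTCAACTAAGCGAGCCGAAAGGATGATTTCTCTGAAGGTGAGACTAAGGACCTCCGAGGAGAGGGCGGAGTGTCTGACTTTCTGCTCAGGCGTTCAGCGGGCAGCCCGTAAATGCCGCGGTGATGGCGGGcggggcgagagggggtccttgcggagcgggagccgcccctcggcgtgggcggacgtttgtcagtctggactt
AGGTCA, the core repeat bound by many nuclear receptors, was found on either strand in 5 of the 29 member windows (17.24%: Acadm, Echs1, Acadvl, Acot4 and Cpt1a), against 16.26% of all 32851 windows. Counted from the start site, it began at position -87 in the Acadvl window and at -94 in the Cpt1a window. AGAACA, the core of a glucocorticoid response element, was found in 3 member windows (10.34%: Hadh, Acot1 and Acsl5), against 18.97% of all windows. The longer forms AGGTCANAGGTCA and AGGNCANAGGNCA (repeats of the PPAR kind), TCAAGGTCA (the kind bound by estrogen-related receptors) and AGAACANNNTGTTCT (the full glucocorticoid palindrome) were in 0 of 29 member windows, against 0.0396%, 0.381%, 0.423% and 0.00913% of all windows. The longer forms contain or overlap the short ones, and a match or its absence describes these letters in this window. The start sites of Hadha and Hadhb, which encode the α and β subunits of the mitochondrial trifunctional protein, lie 272 bases apart on opposite strands.

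Most mitochondrial members had a higher mean in brown than in white fat, while 2 members passed the test. In control mice 18 of 19 mitochondrial members had a higher mean in brown than in white fat, with a median difference of 0.86, whereas 6 of 7 peroxisomal members had a lower mean, with a median of -0.29. In knockout mice the counts were 18 of 19 mitochondrial members higher, with a median of 1.24, and 4 of 7 peroxisomal members higher, with a median of 0.06. The median over all genes tested was -0.08 in control and -0.04 in knockout mice. The limma test called 2 of 33 members in control mice, Cpt1b higher and Cpt1a lower in brown fat, against 5.07% of all genes (3.95% higher and 1.13% lower). It called 1 member in knockout mice, Cpt1b, against 1.58% of all genes (1.33% higher and 0.252% lower). Over all members, 25 of 33 means were higher in brown than in white fat in control mice (44.9% of all genes) and 28 of 33 in knockout mice (47% of all genes). Without the brown control sample on arrays 2 and 3, 29 of 33 were higher in control mice and the median over all members was 0.72, against 0.58 with it. Without brown control array 4, 22 of 33 were higher and the median was 0.25.

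**Figure D1:**
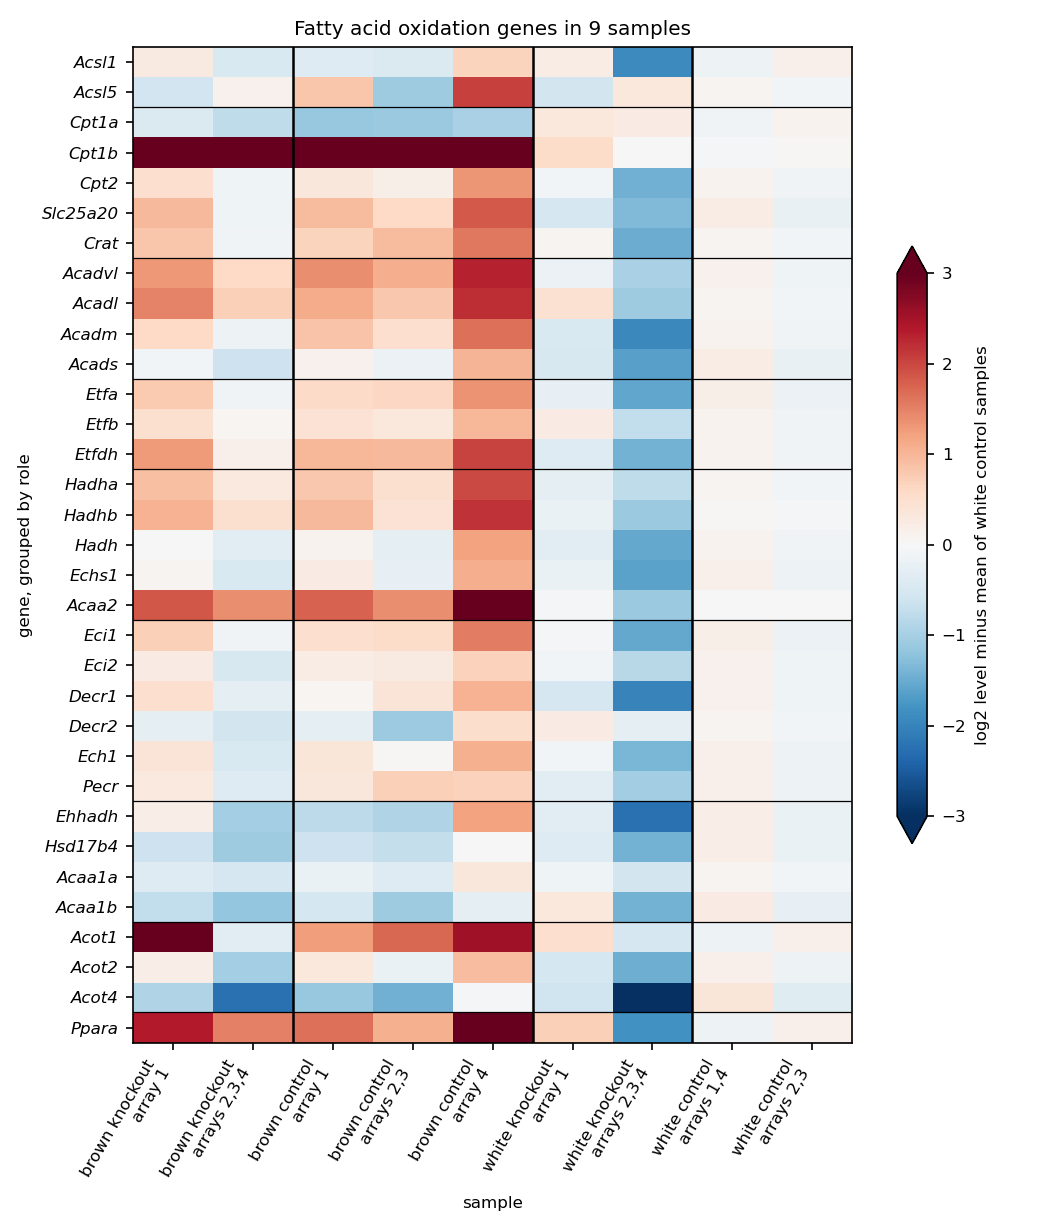
Level of each of the 33 genes (rows, grouped by role) in each of the 9 samples (columns), as log2 level minus the mean of the 2 white control samples; the colour scale stops at 3 and -3. Most mitochondrial rows are red in the brown samples other than the brown knockout sample on arrays 2, 3 and 4. In that sample the mitochondrial median is -0.12. In all brown samples Cpt1b lies beyond the scale and Cpt1a is blue. The white knockout sample on arrays 2, 3 and 4 lies below both white control samples in 30 of 33 rows.

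The carnitine shuttle held both called members. Cpt1b, the muscle-type carnitine palmitoyltransferase, had levels of 4.39 and 2.75 in brown knockout, 4.27, 4.64 and 4.66 in brown control, -1.65 and -2.22 in white knockout and -2.23 and -2.18 in white control samples. The brown samples lay far above all white ones, and the difference was 6.73 ± 0.47 in control mice (106-fold, adjusted p = 0.00047) and 5.50 ± 0.51 in knockout mice (45.4-fold, adjusted p = 0.00313). A dimmer probe of Cpt1b gave 6.11 and 4.74. Cpt1a, the liver-type enzyme for the same step, had levels of 0.96 and 0.62 in brown knockout, 0.25, 0.29 and 0.41 in brown control, 1.70 and 1.63 in white knockout and 1.29 and 1.49 in white control samples. Here the order was turned, with every brown sample below every white one and a difference of -1.07 ± 0.19 in control mice (2.1-fold lower, adjusted p = 0.0271) and -0.87 ± 0.21 in knockout mice (adjusted p = 0.125). Its dimmer probe gave -1.05 and -1.48. The Cpt1a call in control mice was lost when any of the 3 brown or 2 white control samples was left out, with adjusted p-values between 0.0603 and 0.253. It was also lost with samples paired across tissues (adjusted p = 0.0881) and with the literal rule for repeat arrays (adjusted p = 0.218). The Cpt1b difference was 6.67 (adjusted p = 0.00458) without the brown control sample on arrays 2 and 3.

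Between the tissues, skeletal muscle markers moved with Cpt1b. All 14 of them were called higher in brown fat in both genotypes, with median levels of 8.13 and 6.09 in brown knockout, 7.94, 8.10 and 7.91 in brown control, -2.91 and -1.83 in white knockout and -3.47 and -2.93 in white control samples. None of the 14 was below background in brown samples, and in white control fat 1, Casq1, was not well above background on any array. The part of muscle RNA in the Cpt1b difference was not tested. Nor was its part in the differences of the other members, or of other gene lists, between brown and white fat. Of the 10 brown adipocyte markers, 9 had a higher mean in brown fat in control mice and 1 a lower mean (-0.49). In knockout mice 10 had a higher mean, with a smallest difference of 0.03. The median differences were 2.77 in control and 3.10 in knockout mice. In each genotype 1 was called, Cox7a1, a respiratory chain subunit of heart, muscle and brown fat (named after its values were seen). It differed by 5.98 ± 0.47 in control and 5.44 ± 0.52 in knockout mice. In white fat Elovl3 (knockout) and Zic1 (control) were not well above background on any array.

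**Figure D2:**
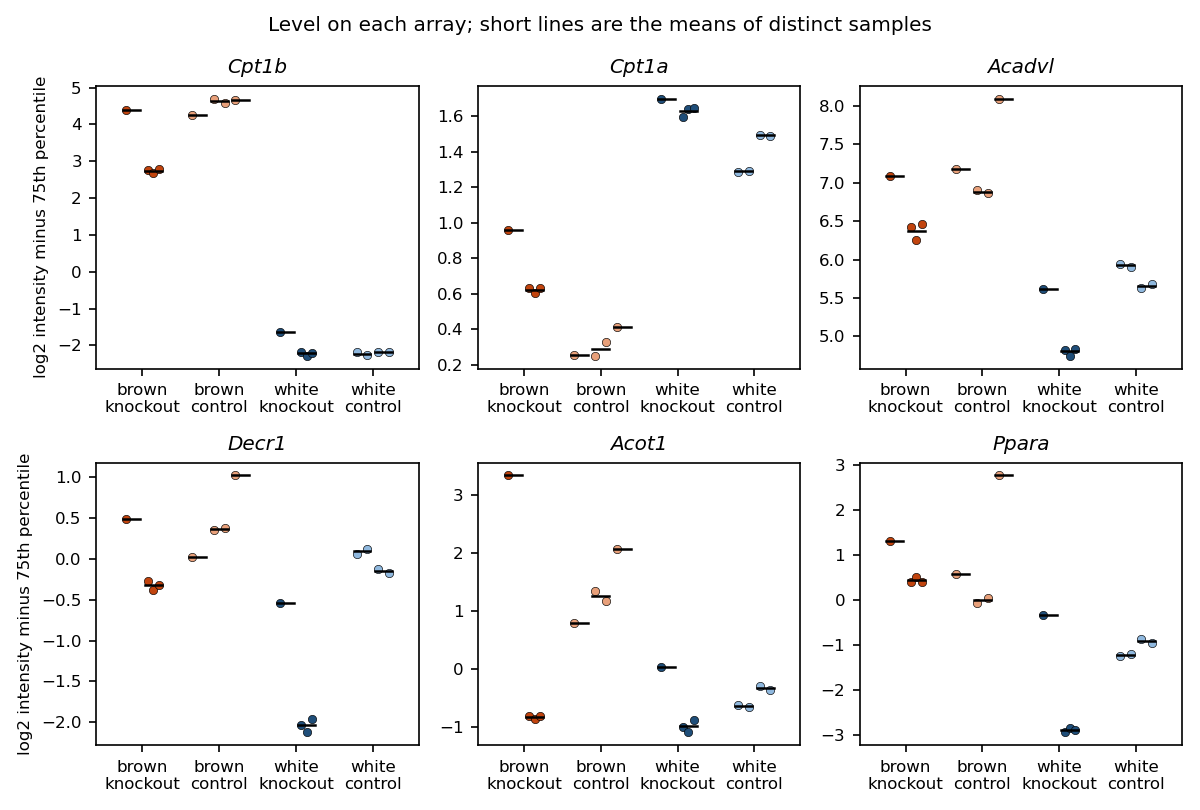
Level of 6 members on each of the 16 arrays, as log2 intensity minus the 75th percentile of the array, by group; points are arrays and short lines the means of arrays counted as 1 sample. Cpt1b separates the tissues far beyond the spread of any group, Cpt1a lies lower in brown fat, and Acot1 and Ppara spread widely between samples of a group.

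The other shuttle genes were not called between tissues. Slc25a20, the carnitine-acylcarnitine translocase, differed by 1.13 ± 0.50 in control and 1.34 ± 0.54 in knockout mice, Cpt2, the inner membrane transferase, by 0.61 ± 0.50 and 0.96 ± 0.55 in the same order, and Crat, carnitine acetyltransferase, by 1.07 ± 0.53 and 1.06 ± 0.58. Of the 2 activating acyl-CoA synthetases, Acsl1 had levels of 6.96 and 6.24 in brown knockout, 6.31, 6.26 and 7.37 in brown control, 6.92 and 4.79 in white knockout and 6.54 and 6.86 in white control samples. These overlapped between tissues, with differences of -0.05 ± 0.65 in control and 0.75 ± 0.71 in knockout mice. Acsl5 gave 0.60 ± 0.82 and -0.10 ± 0.90.

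The acyl-CoA dehydrogenases, which open each mitochondrial cycle and are named for the chain length they take, all had a higher mean in brown fat. Acadvl, for very long chains, had levels of 7.08 and 6.38 in brown knockout, 7.18, 6.89 and 8.09 in brown control, 5.61 and 4.81 in white knockout and 5.92 and 5.66 in white control samples. All brown samples lay above all white samples, and the differences of 1.59 ± 0.44 in control (adjusted p = 0.0922) and 1.52 ± 0.48 in knockout mice (adjusted p = 0.221) were not called. Acadl, for long chains, had levels of 4.31 and 3.53 in brown knockout, 3.92, 3.62 and 5.04 in brown control, 3.28 and 1.76 in white knockout and 2.90 and 2.73 in white control samples, a difference of 1.38 ± 0.58 in control and 1.40 ± 0.63 in knockout mice. Acadm, for medium chains, had levels of 6.01 and 5.25 in brown knockout, 6.26, 5.91 and 7.05 in brown control, 4.94 and 3.49 in white knockout and 5.52 and 5.30 in white control samples. All brown control samples lay above both white controls, and the differences were 1.0 ± 0.52 in control and 1.42 ± 0.57 in knockout mice. Acads, for short chains, had levels of 2.11 and 1.57 in brown knockout, 2.33, 2.03 and 3.22 in brown control, 1.72 and 0.58 in white knockout and 2.42 and 1.98 in white control samples. The groups overlapped, and the difference was 0.33 ± 0.47 in control and 0.69 ± 0.52 in knockout mice.

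The electron transfer flavoprotein, made of the products of Etfa and Etfb, and its dehydrogenase, Etfdh, had higher means in brown fat as well. Etfdh had levels of 5.19 and 4.06 in brown knockout, 4.89, 4.89 and 5.93 in brown control, 3.52 and 2.48 in white knockout and 4.02 and 3.80 in white control samples. Brown and white samples did not overlap, and the difference was 1.33 ± 0.50 in control (adjusted p = 0.178) and 1.63 ± 0.55 in knockout mice (adjusted p = 0.243). Etfa differed by 0.85 ± 0.48 and 1.24 ± 0.52, and Etfb by 0.58 ± 0.36 and 0.51 ± 0.39, in control and knockout mice.

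Of the enzymes of hydration, dehydrogenation and thiolysis, Acaa2, the mitochondrial thiolase that ends the cycle, followed Cpt1b and Cpt1a in the order of p-values in control mice. Its levels were 6.88 and 6.41 in brown knockout, 6.79, 6.41 and 8.09 in brown control, 4.98 and 3.90 in white knockout and 5.03 and 5.01 in white control samples. Every brown sample lay above every white one, by 2.08 ± 0.54 in control (4.24-fold, adjusted p = 0.0792) and 2.20 ± 0.59 in knockout mice (4.6-fold, adjusted p = 0.157), but neither was called. It was called in control mice when the slide was a block (adjusted p = 0.0340) or when either white knockout sample was left out (adjusted p = 0.0481 each). Hadha had levels of 2.24 and 1.64 in brown knockout, 2.14, 1.82 and 3.33 in brown control, 1.08 and 0.57 in white knockout and 1.42 and 1.26 in white control samples. Its differences between tissues, 1.09 ± 0.46 in control and 1.11 ± 0.51 in knockout mice, stood beside 1.19 ± 0.53 and 1.42 ± 0.58 for Hadhb, its partner across the shared start region shown above. Echs1, an enoyl-CoA hydratase, and Hadh, a hydroxyacyl-CoA dehydrogenase, gave 0.36 ± 0.52 and 0.34 ± 0.51 in control mice, and 0.72 ± 0.57 and 0.76 ± 0.56 in knockout mice.

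Unsaturated chains need further isomerases and reductases. Decr1, the mitochondrial dienoyl-CoA reductase, had levels of 0.49 and -0.32 in brown knockout, 0.02, 0.36 and 1.02 in brown control, -0.54 and -2.04 in white knockout and 0.09 and -0.15 in white control samples. Its control samples overlapped between tissues (0.50 ± 0.51), and its knockout samples did not (1.37 ± 0.56, adjusted p = 0.311). Decr2, its peroxisomal counterpart, gave -0.29 ± 0.45 in control and -0.40 ± 0.49 in knockout mice. Eci2, an enoyl-CoA isomerase found in mitochondria and peroxisomes, had levels of 5.42 and 4.71 in brown knockout, 5.42, 5.46 and 5.88 in brown control, 5.11 and 4.37 in white knockout and 5.31 and 5.07 in white control samples. Its differences were 0.40 ± 0.33 and 0.33 ± 0.36, those of Eci1, the mitochondrial isomerase, 0.86 ± 0.53 and 1.09 ± 0.58, and those of Ech1, a dienoyl-CoA isomerase, 0.50 ± 0.49 and 0.70 ± 0.53, in control and knockout mice. Pecr, a peroxisomal enoyl-CoA reductase, had levels of 2.76 and 2.06 in brown knockout, 2.80, 3.17 and 3.14 in brown control, 2.12 and 1.42 in white knockout and 2.62 and 2.31 in white control samples, and it was the peroxisomal member whose mean was higher in brown control fat, by 0.58 ± 0.31 (knockout 0.64 ± 0.34).

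None of the 4 core peroxisomal enzymes was called between the tissues. Ehhadh, the bifunctional hydratase and dehydrogenase, had levels of 0.90 and -0.31 in brown knockout, -0.08, -0.19 and 1.90 in brown control, 0.38 and -1.53 in white knockout and 0.89 and 0.51 in white control samples. Brown control array 4 was the highest of all samples, and the differences were -0.16 ± 0.81 in control and 0.87 ± 0.89 in knockout mice. Hsd17b4, the other multifunctional enzyme, had levels of 4.73 and 4.29 in brown knockout, 4.73, 4.63 and 5.34 in brown control, 4.97 and 3.93 in white knockout and 5.55 and 5.15 in white control samples, a difference of -0.45 ± 0.38 in control and 0.06 ± 0.42 in knockout mice. The thiolase Acaa1a had levels of 5.54 and 5.43 in brown knockout, 5.74, 5.54 and 6.27 in brown control, 5.81 and 5.38 in white knockout and 6.02 and 5.85 in white control samples. These groups overlapped between tissues in both genotypes, with differences of -0.08 ± 0.27 in control and -0.11 ± 0.30 in knockout mice. Its paralog Acaa1b had levels of 2.57 and 2.14 in brown knockout, 2.76, 2.23 and 3.02 in brown control, 3.62 and 1.88 in white knockout and 3.53 and 3.06 in white control samples, a difference of -0.62 ± 0.52 in control and -0.40 ± 0.57 in knockout mice. Whether the probes of Acaa1a and Acaa1b, or those of the Acot genes, tell these near copies apart could not be checked without probe sequences, so their values are uncertain.

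The acyl-CoA thioesterases release the free fatty acid again, Acot1 in the cytosol, Acot2 in mitochondria and Acot4 in peroxisomes, and Acot1 lies next to both others in the genome. Acot1 had levels of 3.33 and -0.82 in brown knockout, 0.79, 1.26 and 2.06 in brown control, 0.04 and -0.98 in white knockout and -0.63 and -0.32 in white control samples. The 2 brown knockout samples lay at opposite ends of the brown range, and the differences of 1.84 ± 1.10 in control and 1.72 ± 1.20 in knockout mice have wide errors. Without both knockout samples that span 3 arrays, which takes out the brown knockout sample at -0.82, the limma fit gave Acot1 a difference of 3.29 in knockout mice (adjusted p = 0.0481) and 1.84 in control mice (adjusted p = 0.0404). That fit holds 1 knockout sample per tissue, each assumed to vary like the control samples, which alone give the spread. Acot2 had levels of -1.16 and -2.40 in brown knockout, -1.06, -1.56 and -0.44 in brown control, -1.89 and -2.84 in white knockout and -1.23 and -1.51 in white control samples, a difference of 0.35 ± 0.50 in control and 0.58 ± 0.55 in knockout mice. Acot4 had levels of -1.87 and -3.20 in brown knockout, -2.11, -2.42 and -1.01 in brown control, -1.57 and -4.04 in white knockout and -0.61 and -1.34 in white control samples. Its differences were -0.87 ± 0.81 in control and 0.27 ± 0.88 in knockout mice, and a dimmer probe gave -0.22 and -0.18.

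Ppara had levels of 1.31 and 0.44 in brown knockout, 0.58, 0.00 and 2.78 in brown control, -0.34 and -2.88 in white knockout and -1.22 and -0.91 in white control samples. All brown samples lay above all white samples. Brown control array 4 was the highest and the white knockout sample on arrays 2, 3 and 4 the lowest, and the differences of 2.18 ± 0.98 in control (adjusted p = 0.244) and 2.49 ± 1.07 in knockout mice (adjusted p = 0.332) were not called.

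**Figure D3:**
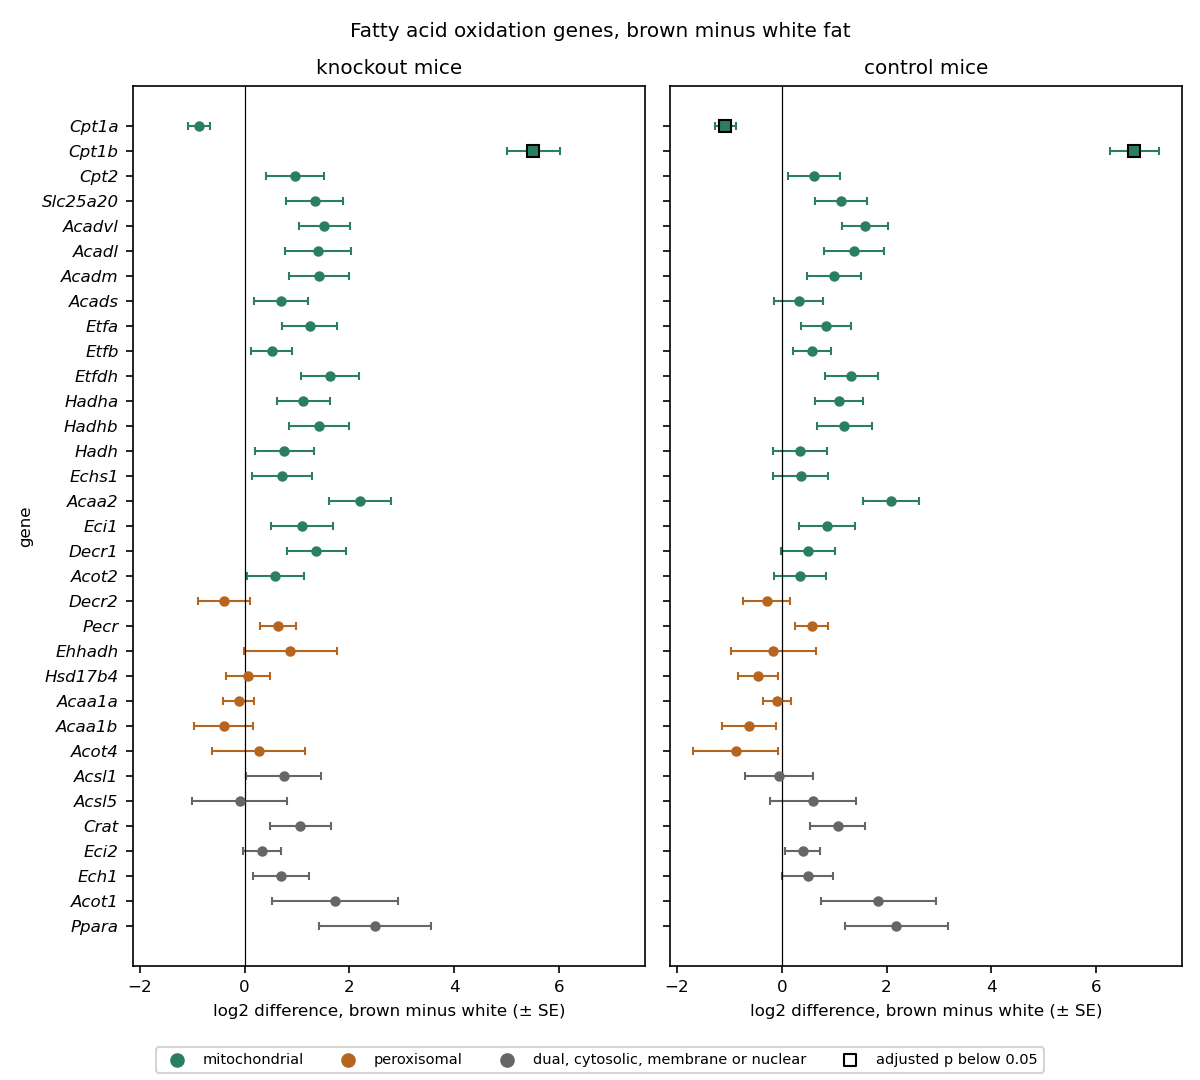
Log2 difference of brown minus white fat for each member, in knockout mice (left) and control mice (right), with bars of 1 SE; green marks mitochondrial, brown peroxisomal and grey other members, and squares mark adjusted p below 0.05. The mitochondrial points lie right of 0 except for Cpt1a, and the peroxisomal points lie around 0.

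Counted over single arrays, 17 of 33 members had every brown control array above every white control array (22.3% of all genes) and 1, Cpt1a, had every one below (25.9% of all genes). In knockout mice the counts were 12 above (13.1% of all genes) and 1 below, again Cpt1a (13.4% of all genes). Arrays of 1 sample repeat each other, so these counts hold fewer independent values than arrays. With all 16 arrays counted as separate samples, 11 members were called higher and 1 lower in brown control fat (19.8% and 19.4% of all genes), out of 39.2% called in all, and 18 higher and 1 lower in brown knockout fat (12.9% and 12.7%, out of 25.7%).

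The knockout in white fat went with lower means of most members, none of which passed the test. Of the 33 members 30 had a lower mean in white knockout than in white control samples (52.6% of all genes), with a median difference of -0.70 against -0.04 over all genes, and the limma test called 0 of 33 members, as it called 0% of all genes (1553 genes, 10%, had an unadjusted p under 0.05, and 0 of them were members). The median was -0.79 over mitochondrial and -0.69 over peroxisomal members. The members with the smallest p were Decr1 at -1.26 ± 0.56, Hsd17b4 at -0.90 ± 0.42, Acadm at -1.20 ± 0.57, Acot4 at -1.83 ± 0.88, Acads at -1.05 ± 0.52 and Pecr at -0.69 ± 0.34, with adjusted p-values between 0.502 and 0.524. For all of these 6 genes both white knockout samples lay below both white control samples. Picking genes by p in this same comparison favours that, so it adds no support. By role, the medians were -0.48 for activation, -0.70 for the carnitine shuttle, -0.82 for the acyl-CoA dehydrogenases, -0.90 for the electron transfer flavoprotein, -0.66 for hydration, dehydrogenation and thiolysis, -0.71 for the enzymes of unsaturated chains, -0.72 for the peroxisomal core and -1.0 for the thioesterases, and Ppara alone stood at -0.55. Means were higher in knockout for Cpt1a at 0.27 ± 0.21, Cpt1b at 0.27 ± 0.51 and Acot1 at 0.00 ± 1.20.

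The size of this shift came from the 2 white knockout samples unequally. The sample on arrays 2, 3 and 4 had a member median of -1.41 against the control mean and lay below both controls for 30 of 33 members, and the sample on array 1 had -0.18 and lay below both controls for 19 members and above both for 10. For all genes the shares below both controls were 49.0% in the sample on arrays 2, 3 and 4 and 44.3% in the sample on array 1. The 10 above both controls in the sample on array 1 were Acsl1, Cpt1a, Cpt1b, Crat, Acadl, Etfb, Decr2, Acaa1b, Acot1 and Ppara. They are 30.3% of the members, against 34.5% of all genes above both controls in that sample. Without the sample on arrays 2, 3 and 4 the member median was -0.18, with 23 of 33 members lower, and without the sample on array 1 it was -1.41. In the sample on arrays 2, 3 and 4 the 10 adipocyte markers had a median of -1.69 against the control mean, the 14 skeletal muscle markers 1.68 and the 12 lymphocyte markers 3.60, while in the sample on array 1 these medians were -0.10, -0.25 and -0.76. Their part in the member differences was not tested. With the lymphocyte level as a covariate the member median was -0.37.

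Counted over single arrays, 18 of 33 members had every white knockout array below every white control array (18.5% of all genes) and 1, Cpt1a, had every one above (10.9% of all genes). With 16 arrays as separate samples 23 members were called lower in white knockout fat (25.7% of all genes) and 0 higher (19%), out of 44.7% called in all. Slide 2 held white control arrays 3 and 4 and white knockout arrays 1 and 2. Within it the median was -0.69, against -0.02 over all genes, and 30 of 33 members were lower.

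In brown fat, 32 of 33 members had a lower mean in knockout than in control samples (60.4% of all genes), with a median difference of -0.51 against -0.13 over all genes. None of the 33 was called, as with 0% of all genes (1097 genes, 7.1%, had an unadjusted p under 0.05, of which Cpt1a was a member). The median was -0.52 over mitochondrial and -0.36 over peroxisomal members. Cpt1a was the exception in direction, at 0.47 ± 0.19 (adjusted p = 0.614), and both brown knockout samples lay above all 3 brown control samples. The medians by role were -0.43 for activation, -0.70 for the carnitine shuttle, -0.67 for the acyl-CoA dehydrogenases, -0.51 for the electron transfer flavoprotein, -0.49 for hydration, dehydrogenation and thiolysis, -0.52 for the enzymes of unsaturated chains, -0.34 for the peroxisomal core and -0.69 for the thioesterases, and Ppara alone stood at -0.24. Among the lower means, Cpt1b stood at -0.95 ± 0.47, Pecr at -0.63 ± 0.31, Eci2 at -0.52 ± 0.33, Acot2 at -0.76 ± 0.50 and Acadm at -0.78 ± 0.52, with adjusted p-values between 0.614 and 0.62. Pecr was the 1 member with every knockout array below every control array (16.9% of all genes), and Cpt1a the 1 with every array above (11.2%).

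Here too the 2 knockout samples differed. The brown knockout sample on arrays 2, 3 and 4 had a member median of -0.81 against the control mean and lay below all 3 controls for 28 of 33 members (45.1% of all genes), and the sample on array 1 had -0.14 and lay within the range of the controls for 29 members (51.7% of all genes). Acot1 at 3.33 lay above all controls in the sample on array 1 and at -0.82 below them all in the other. Cpt1b at 4.39 lay among the controls in the sample on array 1, and at 2.75 below them in the other, in which the skeletal muscle markers had a median of -1.33 against the control mean (-0.38 on array 1). Brown control array 4 was high for most members, with a median of 0.69 above the control mean, and without it the knockout difference had a median of -0.15, with 24 of 33 members lower. In that sample the liver-type markers (3 tested of 6 listed) had a median of 2.35 against the control mean, while they had -1.30 and -1.05 in the other brown control samples, and the brown adipocyte markers had 1.84. The liver-type markers had a median knockout difference of -2.50 in brown and -1.81 in white fat, and their part in the member differences was not tested. Without the brown knockout sample on arrays 2, 3 and 4, 26 of 33 members were lower. Without the brown control sample on arrays 2 and 3 the median was -0.75 and 32 of 33 members were lower. Lymphocyte markers were at medians of 3.47 and 5.33 above the control mean in the brown knockout samples, and with their level as a covariate the member median turned to 0.46. Their median levels were 0.62 and 2.16 in brown knockout against -2.23, -2.65 and -4.22 in brown control samples. No level was shared by both genotypes, so this fit cannot separate lymphocyte level from knockout in brown fat. The part of lymphocyte RNA in the member differences was not tested.

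With 16 arrays as separate samples 1 member, Cpt1a, was called higher (12.6% of all genes) and 4, Cpt1b, Pecr, Eci2 and Acot2, lower (18.1%) in brown knockout fat, out of 30.7% called in all. Slide 4 held brown control arrays 3 and 4 and brown knockout arrays 1 and 2. Within it the median was -0.59, against -0.17 over all genes, and 32 of 33 members were lower. Brown control array 4, high for most members, is among the controls on that slide, and brown control array 1 is not. With the authors' unscaled values the median of all genes was 0.31, and that of the members lay below it at -0.08. Of the members, 19 had a lower mean in knockout than in control samples.

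**Figure D4:**
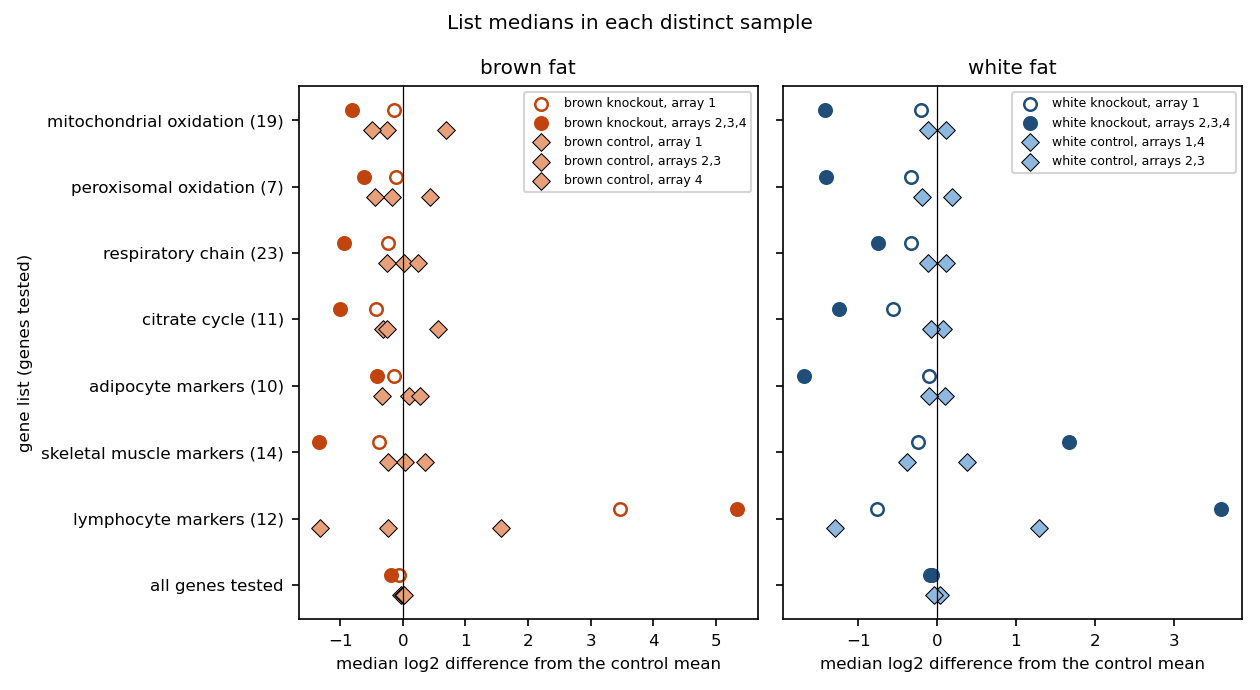
Median log2 difference of each gene list from the control mean of the same tissue, in each sample of brown fat (left) and white fat (right); circles are knockout samples (open for array 1, filled for arrays 2, 3 and 4) and diamonds control samples, with the number of genes tested in parentheses. The filled circles of both oxidation lists lie left of the controls in both tissues, and those of the lymphocyte markers lie far right.

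The effect of the knockout was not shown to differ between the tissues for any member. The effect in brown minus that in white fat had a median of 0.23 over the members and 0.01 over all genes, and limma called 0 of 33 members and 0% of all genes (402 genes, 2.6%, had an unadjusted p under 0.05, 0 of them members). The difference was positive for 24 of 33 members (51.1% of all genes). With 16 arrays as separate samples 0 members were called, against 4.08% of all genes. Cpt1b had the smallest p, at -1.22 ± 0.69, with mean levels of 3.57 in brown knockout against 4.52 in brown control fat and -1.94 in white knockout against -2.20 in white control fat. Decr1 followed at 0.87 ± 0.76, Acot4 at 1.14 ± 1.20, Hsd17b4 at 0.51 ± 0.57, Ehhadh at 1.03 ± 1.21 and Acsl1 at 0.80 ± 0.96. The errors are of the size of the differences, and the median was -0.02 without the brown control sample on arrays 2 and 3 and 0.56 without brown control array 4. It was positive for 12 of 33 members without the brown knockout sample on array 1, where the median was -0.13, and for 3 of 33 with only array 1 kept in white knockout fat, where it was -0.28. The white and brown comparisons share no samples.

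Neighbouring pathways were read from lists chosen by function, also with earlier results of these data known. Of all genes, 44.9% had a higher mean in brown than in white fat in control mice. There 3.95% of all genes were called higher, and 1.33% in knockout mice. The respiratory chain and ATP synthase, which take the electrons of fatty acid oxidation, had a higher mean in brown control fat for 23 of 23 genes, with a median of 1.26 and 6 called, among them Cox5a at 1.55 ± 0.26 (adjusted p = 0.0214). The citrate cycle, which burns its acetyl-CoA, was higher for 11 of 11 tested genes of 12 listed, with a median of 1.47 and 3 called, among them Idh3b at 2.07 ± 0.41 (adjusted p = 0.0374). In knockout mice the medians were 1.22 and 1.47, with 0 called in each. Of the regulators and PPAR targets, 17 tested of 18, 3 were called higher in brown control fat, namely Fabp3 at 8.69 ± 0.98, a fatty acid carrier of muscle and brown fat, Esrra at 1.47 ± 0.25, an estrogen-related receptor, and Ppargc1b at 2.0 ± 0.40, a coactivator of mitochondrial genes. Fabp3 was also called in knockout mice, at 6.98 ± 1.08. The part of muscle RNA in these differences between tissues was not tested.

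Of 21 tested genes of 22 listed for other mitochondrial acyl-CoA enzymes, 1 was called in control mice (5.07% of all genes) and 0 in knockout mice. It was Acss1, a mitochondrial acetyl-CoA synthetase, at 2.41 ± 0.33 (adjusted p = 0.0103). The further genes of peroxisomal oxidation and import, 17 tested of 18, and the 15 of peroxisome biogenesis had 0 called between tissues, with medians of -0.02 and -0.13 in control mice. In the knockout comparisons 0 genes of any of these lists were called. Their white fat medians were -0.57 for the respiratory chain, -0.90 for the citrate cycle, -0.71 for peroxisomal oxidation and import and -0.71 for peroxisome biogenesis, and the brown fat medians in the same order were -0.58, -0.71, -0.33 and -0.26.

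Of the 7 members with several probes, the probes kept the same sign in all 4 group comparisons except for Acsl1 in brown knockout against control fat (-0.04 for the brightest, 0.09 and 0.19 for the others) and Acot4 in brown against white knockout fat (0.27 and -0.18).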

How the data were processed

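Total RNA of mouse fat was read on 16 1-colour Agilent arrays, counted as 9 distinct samples, and the number of arrays limits the precision. Per the file headers, the authors' Agilent Feature Extraction 12.0.0.7 corrected background and spatial trend within each array, and the deposited intensity values were not scaled between arrays. The deposited value table held the same processed intensity, averaged over spots of a probe (largest relative difference 5e-06 over 41174 probes). Whether any further step was taken is not given in the sources used here.

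Outlier spots were dropped, and log2 intensity minus the 75th percentile of the array was taken. Probes well above background on all arrays of some group were kept, and the brightest stood for its gene. Genes were named by RefSeq accession through a GRCm38.p6 table; the array design names another build, so no probe or gene coordinates are taken from it, and only the RefSeq windows carry GRCm38.p6 positions. Arrays of a group were averaged where the scaled median absolute deviation of their difference over the scanner's error was below 1, over 9835 probes with a mean level above the 75th percentile: 9 pairs had ratios between 0.376 and 0.658, the other 15 between 1.1 and 4.28. Group means of the 9 samples were fitted with limma 3.58.1 in R 4.3.3, and p-values were adjusted over all genes (Benjamini-Hochberg, threshold 0.05); the script was tested on simulated data. The members and lists were chosen with earlier results of these data known. Sample values are given for called members, else for the 6 with the smallest p in each comparison, and for a list of others chosen by name; from other lists, up to 3 called genes or the 1 with the smallest p. The windows shown were chosen after motif matches were seen. Normexp used the median signal, as the files analysed hold no mean signal.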

Additional observations from a re-analysis of the deposited data

How the results depend on the processing

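With another background correction, quantile scaling, no filter on dim probes, the mean of a gene's probes, the slide as a block and values within a slide, the member medians lay between 0.45 and 0.60 between tissues in control mice, 0.81 and 0.87 in knockout mice, -0.72 and -0.62 for the knockout in white fat, -0.59 and -0.25 in brown fat (-0.25 with quantile scaling) and 0.20 and 0.32 for the difference of effects. The SD between samples (0.618) exceeds 3 of these 5 medians as reported (0.58, -0.51 and 0.23). Called members kept their direction in every alternative run. Uncalled members turned sign 26 times over 37 alternatives in control mice and 28 times over 37 in knockout mice between the tissues, 35 times over 36 for the knockout in white fat, 75 times over 36 in brown fat (30 of them with the lymphocyte covariate) and 169 times over 37 for the difference of effects.

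The count of members called depended on how arrays were counted. With 16 arrays as separate samples it was 12 between tissues in control mice, 19 in knockout mice, 23 for the knockout in white and 5 in brown fat. With the replicate block on 16 arrays these were 15, 22, 24 and 10, against 39.9%, 25.2%, 45.9% and 32.1% of all genes. The replicate numbers do not pair knockout with control: same-numbered arrays deviated with correlations between -0.54 and -0.04 in brown fat and between -0.52 and 0.41 in white fat, and for control mice across tissues between -0.13 and 0.18. For knockout mice across tissues they were between 0.29 and 0.57, but arrays 2, 3 and 4 are 1 sample there. With samples paired across tissues by number as a replicate block, 1 member was called in control mice, as Cpt1a was lost (adjusted p = 0.0881), and 1 in knockout mice. The literal rule for repeat arrays, an alternative added after seeing the data, left 1 call in control and 1 in knockout mice (Cpt1b) and the same medians. The cause of these changes was not tested. For the paired samples and the literal rule, the share of all genes called is not given here. Their counts therefore cannot be compared with a rate over all genes.

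In control mice 1 member was called without any of the control samples, as Cpt1a was lost. In knockout mice 2 members were called with the lymphocyte covariate (Decr1), with the mean of kept probes or the slide as a block (Cpt1a), and without both 3-array knockout samples or the brown one alone (Acot1, with 1 brown knockout sample left that is assumed to vary like the other samples). Leaving out single arrays gave 1 to 3 calls in control mice, 1 in knockout mice and 0 for the knockout comparisons; medians between 0.25 and 0.70 in control mice, 0.46 and 1.63 in knockout mice, -1.41 and -0.69 for the knockout in white fat, -0.81 and -0.15 in brown fat and -0.13 and 0.79 for the difference of effects; and 12 to 32 members with a higher mean for that difference. For these counts of calls, the share of all genes called by the same fit is not given here. Whether they exceed the rate over all genes therefore cannot be read from them. In the fit reported above, 5.07% of all genes were called between tissues in control mice and 1.58% in knockout mice. Without the white knockout sample on array 1 the median was 1.63 between tissues in knockout mice and -1.41 for the knockout in white fat. The members with a higher difference of effects numbered 12 without the brown knockout sample on array 1 and 3 without the white one on arrays 2, 3 and 4. Without both 3-array knockout samples, also added after seeing the data, the medians were -0.18 in white fat, -0.14 in brown fat, -0.02 for the difference and 0.64 between tissues in knockout mice.

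With the lymphocyte covariate the median was 0.46 for the knockout in brown fat, with 2 members lower, and 0.88 for the difference of effects. Median lymphocyte levels did not overlap between the genotypes in brown fat, so this fit cannot separate the 2 there. With the authors' unscaled values the difference of effects had a median of 0.85 (all genes 0.64), and 19 members were lower in brown knockout fat. No knockout difference was called for any gene in the 9 samples. Signal over background limited no member, since each was well above background in every group.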

Other observations

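Markers of other cell types also differed between the tissues. Of 6 mesothelial markers, genes of the lining of body cavities, 4 were called lower in brown than in white fat in control mice and 1 in knockout mice. The shares of all genes called lower were 1.13% in control and 0.252% in knockout mice. In each genotype 1 of the 6 went the other way, at 0.996 in control and 3.17 in knockout mice, and was not called. Among the mesothelial markers, Wt1 and Upk1b were not well above background on any brown array, so no fold is given for them. Msln differed by -5.61 ± 1.06 in control mice (adjusted p = 0.031). Msln had levels of -4.32 and -5.18 in brown knockout, -2.45, -2.90 and -1.88 in brown control, 3.63 and -0.42 in white knockout and 3.53 and 2.87 in white control samples, so the white knockout sample on arrays 2, 3 and 4 lay below all other white samples. Of 8 macrophage markers, 8 had a lower mean in brown fat in both genotypes, and 2, named after their values were seen, were called in control mice, Lyve1 at -2.29 ± 0.44 and Trem2 at -2.34 ± 0.50.

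Bdh1, a mitochondrial ketone body dehydrogenase, had levels of 3.19 and 1.13 in brown knockout, 1.83, 2.68 and 1.35 in brown control, 3.88 and 1.63 in white knockout and -1.20 and -0.34 in white control samples. Both white knockout samples lay above both white controls, by a mean of 3.52 ± 0.93, which was not called (adjusted p = 0.414). Acss1 had levels of 3.18 and 3.52 in white knockout and 1.98 and 2.42 in white control samples, a difference of 1.15 ± 0.37 (adjusted p = 0.44), against a median of -0.70 over the fatty acid oxidation genes in the same comparison.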
